A study of Homo sapiens with 12 samples.

Results

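Tubulin is the building block of microtubules, the hollow tubes that pull chromosomes apart in dividing cells and that carry transport along the processes of neurons. Each unit is a pair of one α-tubulin and one β-tubulin, and each family is encoded by several genes, called isotypes, whose proteins are nearly the same except at the C-terminal tail, where enzymes add and remove chemical groups and where motors and associated proteins bind. TUBA1A, TUBB3, TUBB2A and TUBB2B are the isotypes known for high expression in developing neurons, TUBB3 being a widely used neuronal marker, whereas TUBA1B, TUBA1C, TUBB6 and TUBB4B are expressed in many cell types. MAP2 and MAP1B are structural microtubule-associated proteins (MAPs) of neurons that bind along the microtubule wall, MAP2 mainly in dendrites and MAP1B mainly in growing axons.

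The 10 genes described here are 4 α-tubulins (TUBA1A, TUBA1B, TUBA1C and TUBA4A), 4 β-tubulins (TUBB2A, TUBB2B, TUBB3 and TUBB6) and the 2 MAPs, taken by symbol from 23273 gene rows. They were selected on their FPKM changes under the drug in these same libraries, so their values are given as a description with no test. P-values are given only for microtubule and neuronal intermediate filament genes outside the 10. RNA was sequenced from COLO858 and MMACSF, 2 established human BRAF-mutant melanoma lines grown on plates, each a model of a single tumour. In each line, 2 libraries came from cells given the solvent DMSO, for a time that the labels do not give, and 2 each from cells given 0.2 µM of the RAF inhibitor vemurafenib for 24 h or 48 h, which makes 6 groups and 12 libraries. Per the paper's methods, the cells were seeded in 2 replicates and treated the next day. Neither those methods nor the labels say whether replicates came from separate experiments, so the spread between them may be technical. All values are FPKM, fragment counts scaled to transcript length and to library size. The lines were deposited as separate tables, so levels are compared within a line only, and both drug times are set against the same DMSO pair.

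The lineage of the lines was checked first. Of 8 melanocyte markers, 6 to 7 reached a group mean of 1 FPKM in COLO858 and 8 in every MMACSF group. Their summed FPKM was 702 to 717 under DMSO, 3922 to 4158 at 24 h and 4144 to 4149 at 48 h in COLO858. In MMACSF it was 11160 to 11373, then 15589 to 16776, then 16831 to 17555. The sums hide single markers: of 7 tested in COLO858, 7 were above DMSO at 24 h, and 5 above and 2 below at 48 h. In MMACSF 7 were above and 1 below at both times. S100B, among the 8 and listed by the paper with neurogenesis genes, stood at 9.00-fold of DMSO at 48 h in COLO858 and 0.821 in MMACSF. Of 8 neuron markers outside the tubulins and MAPs, 2 reached 1 FPKM in COLO858 and 1 in MMACSF, and their summed FPKM was 9.28 to 13.5 and 2.52 to 3.92. In COLO858 that sum was lowest at 48 h. The 4 immune markers summed to at most 1.08 FPKM in any library. The 6 fibroblast markers summed to 9.29 to 35.3 FPKM in COLO858, highest at 48 h, and to 20.2 to 79.2 in MMACSF, highest under DMSO, and 4 keratinocyte markers to 6.49 to 10.4 FPKM in all 12 libraries. The part of other cells in the results was not tested.

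How alike the isotypes are bears on every value below, because reads were 50 bases long. The last 60 coding bases, stop codon included, are shown for the 4 β-tubulin members because they encode the tail in which isotypes differ. Capitals mark bases that differ from TUBB2A in a pairwise alignment. All were read from GRCh37, each lies within a single coding exon, and each is written 5′ to 3′ on the strand of its gene.
TUBB2A (chr6:3154097-3154156, minus strand): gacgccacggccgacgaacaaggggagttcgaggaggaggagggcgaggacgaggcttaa
TUBB2B (chr6:3224985-3225044, minus strand): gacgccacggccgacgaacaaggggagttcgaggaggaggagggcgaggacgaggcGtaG
TUBB3 (chr16:90002153-90002212, plus strand): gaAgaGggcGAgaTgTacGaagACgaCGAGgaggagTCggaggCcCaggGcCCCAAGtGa
TUBB6 (chr18:12326070-12326129, plus strand): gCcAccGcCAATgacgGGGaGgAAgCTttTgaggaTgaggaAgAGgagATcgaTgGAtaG

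TUBB2A and TUBB2B, which moved in opposite directions in MMACSF, differed there at 2 positions, whereas 25 positions differed in TUBB3 and 26 in TUBB6. Over the whole coding sequence TUBA1A and TUBA1B were 97.2% identical and TUBB2A and TUBB2B 98.1%, against 87.7% for TUBB2A and TUBB3. Of all 50-base windows of the reference transcript, 52.7% recurred at another locus for TUBA1A, 62.7% for TUBA1B, 27.4% for TUBA1C, 64.6% for TUBB2A and 54.9% for TUBB2B. The share was 9.23% for TUBB3, 1.09% for TUBB6 and 0 for TUBA4A, MAP2 and MAP1B. How the authors' programs divided reads that fit several isotypes is not stated, so TUBA1A against TUBA1B, and TUBB2A against TUBB2B, are the uncertain pairs. TUBB3 (chr16:89987800-90005169) has a further overlap, since 92.8% of its windows also lie in ENSG00000198211, an overlapping gene on the same strand.

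The main result for α-tubulin was that TUBA1A came to make up a far larger part of α-tubulin RNA in both lines, by different routes. In COLO858 the mean of TUBA1A at 48 h was 14.7-fold that of DMSO, and that of TUBA1B, the most abundant isotype, was 0.733 of DMSO. In MMACSF TUBA1A stayed near its DMSO level while TUBA1B stood at 0.103 and TUBA1C at 0.168 of DMSO. These fold values are ratios of group mean FPKM. In these bulk libraries fewer cells with an RNA and less RNA per cell cannot be told apart. The log2 changes given below are on the log2(FPKM + 1) scale with the standard error (SE) of a limma fit, and understate changes of low genes.

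TUBA1A (chr12:49578469-49582863, minus strand) read 30.5 and 34.1 FPKM under DMSO in COLO858, 198 and 222 at 24 h, and 448 and 499 at 48 h. The 3 groups did not overlap, and the level went up at both steps, by 2.66 from DMSO to 24 h and by 1.17 from 24 h to 48 h on the log2 scale (SE 0.13 each). In MMACSF it read 68.1 and 66.7 under DMSO, 62.9 and 77.2 at 24 h, and 60.6 and 61.6 at 48 h. The 24 h group overlapped DMSO there and the 48 h group lay just below it, with log2 changes of 0.05 (SE 0.13) and −0.14 (SE 0.13).

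TUBA1B (chr12:49521565-49525180, minus strand), the broadly expressed isotype, read 710 and 666 FPKM under DMSO in COLO858, 397 and 408 at 24 h, and 516 and 493 at 48 h. It was thus lowest at 24 h and partly back at 48 h, with no overlap among the groups. In MMACSF it went from 413 and 389 to 58.4 and 62.8 at 24 h and to 42.5 and 40.2 at 48 h, log2 changes of −2.71 and −3.25 (SE 0.11 each). No other member fell so far in either line.

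TUBA1C (chr12:49582519-49668383, plus strand) followed TUBA1B. Its FPKM was 132 and 126 under DMSO, 49.3 and 50.7 at 24 h and 64.6 and 65.7 at 48 h in COLO858. In MMACSF the values were 132 and 126, then 22.7 and 26.9, then 22.4 and 20.8. In both lines the drug groups lay below DMSO, and COLO858 alone had a higher 48 h than 24 h group. TUBA1C overlaps TUBA1A on the opposite strand and TUBA1B-AS1 overlaps TUBA1B, and the strand setting used for counting is not stated.

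TUBA4A (chr2:220114432-220142624, minus strand), a minor isotype here, read 3.91 and 3.15 FPKM under DMSO in COLO858, 1.09 and 1.01 at 24 h and 0.951 and 0.480 at 48 h. Its log2 changes were −1.14 and −1.41 (SE 0.19), opposite in sign to TUBA1A. In MMACSF it was listed at 0 in replicate 1 of every group and at no more than 0.180 FPKM in replicate 2. Its locus overlaps STK16 and TUBA4B on the other strand.

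**Figure D1:**
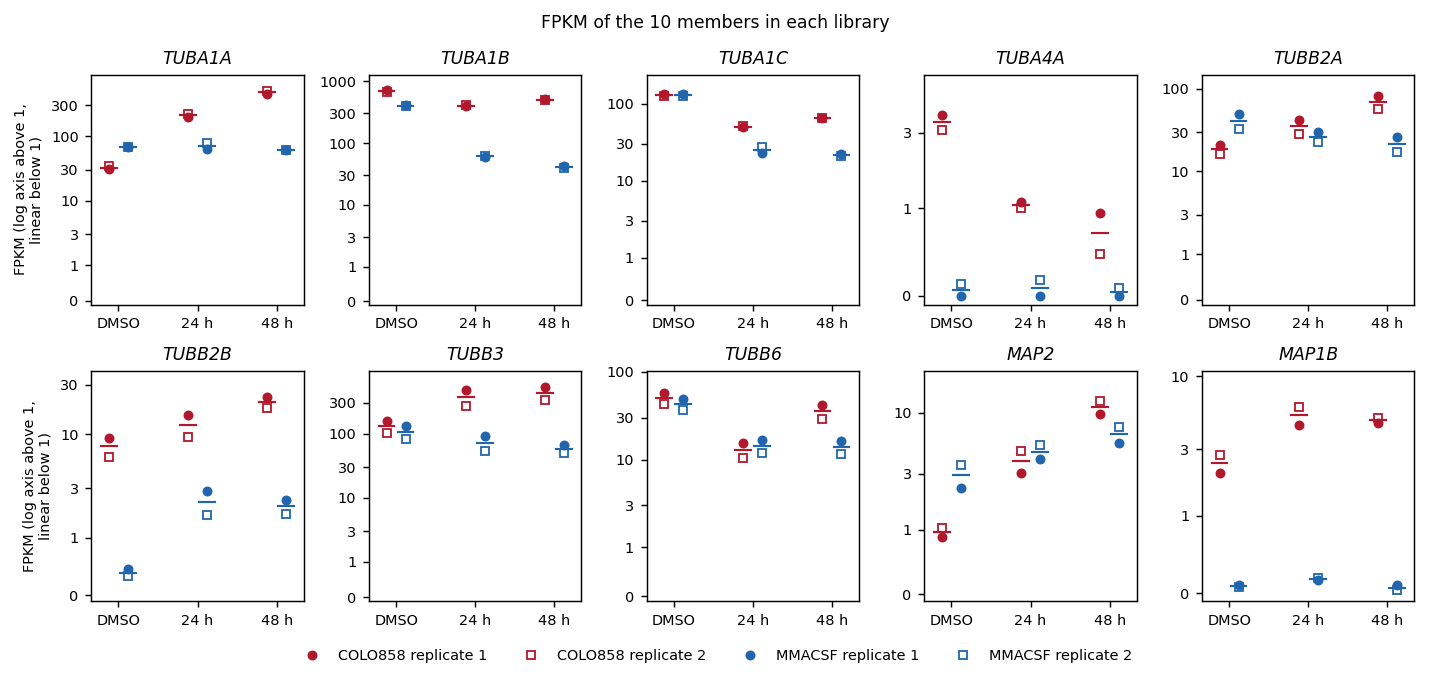
FPKM of each of the 10 genes (y axis, log scale above 1 and linear below) under DMSO and after 24 h and 48 h in vemurafenib (x axis), with filled circles for replicate 1, open squares for replicate 2 and a short line for the mean of 2. COLO858 (red) and MMACSF (blue) come from separate tables, so only the course within a colour is read: TUBA1A climbs from 30.5 and 34.1 to 448 and 499 FPKM in COLO858 and stays between 60.6 and 77.2 in MMACSF, where TUBA1B and TUBA1C drop.

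Among the β-tubulins, TUBB3 and TUBB2A were higher under the drug in COLO858 and lower in MMACSF, TUBB2B was higher in both lines, and TUBB6 was lower in both. In COLO858 at 48 h TUBB3 stood at 3.32-fold, TUBB2A at 3.76-fold and TUBB2B at 2.66-fold of DMSO, and TUBB6 at 0.710. In MMACSF at 48 h the same ratios were 0.547 for TUBB3, 0.523 for TUBB2A, 5.11 for TUBB2B from a very low start, and 0.325 for TUBB6.

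TUBB3 (chr16:89987800-90005169, plus strand), the class III neuronal isotype, read 159 and 101 FPKM under DMSO in COLO858, 471 and 269 at 24 h, and 527 and 335 at 48 h. Both drug groups lay wholly above DMSO and overlapped each other, with log2 changes of 1.48 and 1.72 (SE 0.39). In MMACSF it read 130 and 82.2, then 91.4 and 52.6, then 66.0 and 49.9. There the 24 h group overlapped DMSO and the 48 h group lay below it. Because of the shared windows, MC1R, the neighbouring melanocortin receptor gene, was looked up after the TUBB3 values were seen. MC1R read 5.19 and 4.02 FPKM under DMSO in COLO858, 8.42 and 6.13 at 24 h and 5.93 and 4.80 at 48 h, and fell from 42.7 and 34.9 to 16.1 and 13.4 at 48 h in MMACSF. Under DMSO TUBB3 read 159 and 101 FPKM beside 5.19 and 4.02 for MC1R in COLO858. In MMACSF it read 130 and 82.2 beside 42.7 and 34.9 for MC1R. Both genes were lower there at 48 h, TUBB3 at 0.547 and MC1R at 0.381 of DMSO. The part of the overlapping gene in TUBB3 was not tested.

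TUBB2A (chr6:3153731-3157778, minus strand) climbed at both steps in COLO858, from 21.1 and 16.0 FPKM to 42.3 and 28.1 at 24 h and 82.8 and 56.9 at 48 h, with no overlap among the groups. In MMACSF it went down, from 49.9 and 32.6 to 30.4 and 22.6 and then 26.1 and 17.03, where the drug groups lay below DMSO and overlapped each other. The log2 changes at 48 h were 1.84 (SE 0.29) and −0.90 (SE 0.30), a difference between the lines of 2.75 (SE 0.46). TUBB2B (chr6:3223558-3231964, minus strand), its close copy, read 9.21 and 6.06, then 15.2 and 9.48, then 22.7 and 17.9 FPKM in COLO858. In MMACSF it read 0.457 and 0.331 under DMSO, 2.81 and 1.65 at 24 h, and 2.32 and 1.71 at 48 h, so the copies moved in opposite directions in that line.

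TUBB6 (chr18:12307668-12344319, plus strand), a broadly expressed isotype, read 56.9 and 43.0 FPKM under DMSO in COLO858, 15.6 and 10.4 at 24 h, and 42.3 and 28.7 at 48 h. This dip and return gave log2 changes of −1.88 at 24 h and −0.49 at 48 h (SE 0.29). In MMACSF it read 49.2 and 36.5, then 16.9 and 11.97, then 16.4 and 11.5, a fall with no return. Replicate 1 was above replicate 2 in all 6 groups for each of the 4 β members, by 1.27- to 1.75-fold, which widens their SE. Within each line the order of groups was nevertheless the same in both replicates for these members, except for TUBB2B in MMACSF.

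Both MAPs were low. MAP2 (chr2:210288771-210598871, plus strand) read 0.885 and 1.03 FPKM under DMSO in COLO858, 3.06 and 4.66 at 24 h, and 9.71 and 12.6 at 48 h, an 11.7-fold higher mean at 48 h with no overlap at either step. It was also higher in MMACSF, from 2.27 and 3.58 to 3.98 and 5.31 and then 5.53 and 7.49, or 2.23-fold at 48 h. MAP2 was one of only 2 members, with TUBB2B, that were above DMSO without overlap at both times in both lines. Replicate 2 was higher than replicate 1 in all 6 groups for MAP2, the reverse of the β-tubulins. MAP1B (chr5:71403061-71505392, plus strand) read 2.03 and 2.72, then 4.499 and 6.06, then 4.601 and 5.04 FPKM in COLO858, with both drug groups above DMSO and overlapping each other. In MMACSF it stayed at or below 0.195 FPKM in every library, and it was below the level required for a fit.

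**Figure D2:**
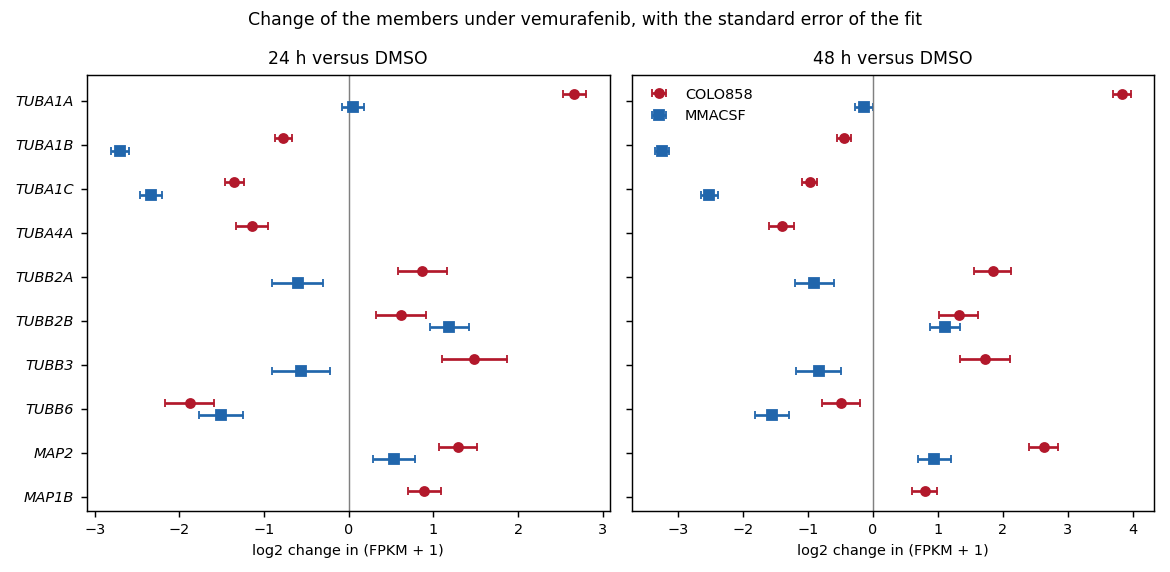
Change of each of the 10 genes against DMSO on the log2(FPKM + 1) scale (x axis) at 24 h (left) and 48 h (right), with bars for the SE of the limma fit, circles for COLO858 and squares for MMACSF. TUBA4A and MAP1B have no MMACSF point because they were below 1 FPKM there. TUBA1A lies at 2.66 and 3.83 in COLO858 and next to 0 in MMACSF, and TUBB2A and TUBB3 lie on opposite sides of 0 in the 2 lines.

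All 10 members passed the expression minimum (a group mean of 1 FPKM) in COLO858 and 8 in MMACSF. In COLO858 6 of 10 lay wholly above DMSO and 4 wholly below it at 24 h, where 63.1% of all genes tested did not overlap (34.1% above and 29.0% below), and the same numbers did so at 48 h, where 61.3% did not (29.9% above and 31.4% below). From 24 h to 48 h 7 lay above and 1 below, where 46.7% of all genes did not overlap (20.1% above and 26.6% below). In MMACSF 2 of 8 lay above and 4 below at 24 h, against 59.8% of all genes (34.0% above and 25.8% below). At 48 h 2 lay above and 6 below, against 64.5% (35.7% above and 28.8% below), and between the times 1 above and 3 below, against 32.1% (14.5% above and 17.6% below). Nothing is read from these counts, because the choice of the 10 used the same contrasts.

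The line difference, the COLO858 change minus the MMACSF change in a 12-library fit, was 2.62 for TUBA1A, 1.94 for TUBA1B and 0.98 for TUBA1C at 24 h. At 48 h it was 3.97, 2.80 and 1.55 for these genes, 2.75 for TUBB2A and −1.38 for TUBA4A. These too are descriptions, drawn from the values on which the genes were selected. The median change of the members in COLO858 was 0.74 at 24 h and 1.06 at 48 h, and in MMACSF −0.59 and −0.87, with all-gene medians between −0.01 and 0.07. These medians mix genes that went up and down, and some depended on single libraries. Without replicate 1 of the COLO858 24 h group the first became 0.44. Without replicate 1 of the MMACSF DMSO group the MMACSF medians became −0.27 and −0.56, without replicate 2 of that group the 24 h median became −0.90, and without replicate 1 or 2 of the MMACSF 24 h group it became −0.89 or −0.29.

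Within a library, each isotype can be expressed as a share of the summed FPKM of its family, which does not depend on how libraries were scaled. The shares below use all listed α- or β-tubulins. The TUBB row, the β-tubulin that most cells use, was listed at 0 in all 12 libraries and is missing from the β sum. Of 68 protein-coding genes within 1000000 bases of TUBB (chr6:30685212-30693315) that have a row, 63 were likewise listed at 0 in every library, or 92.6%, against 18.5% of all rows, and they include the ubiquitous FLOT1 and ABCF1. The zero of TUBB is therefore no measurement of its level.

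TUBA1A made up 3.79% ± 0.448 (SD, n = 2) of α-tubulin FPKM under DMSO in COLO858, 31.6% ± 1.29 at 24 h and 45.3% ± 2.56 at 48 h. In MMACSF its share went from 11.3% ± 0.252 to 44.8% ± 1.85 and 49.1% ± 1.38. The share thus went up in both lines, although the level of TUBA1A went up in COLO858 alone. In COLO858 TUBA1B held 80.6% ± 0.477 under DMSO and 48.3% ± 2.47 at 48 h, and in MMACSF 67.1% ± 0.288 and 33.2% ± 0.775. The ratio of TUBA1A to TUBA1B in single libraries was 0.0429 and 0.0512 with DMSO, 0.500 and 0.543 after 24 h, then 0.869 and 1.01 after 48 h for COLO858. For MMACSF it was 0.165 and 0.171, 1.08 and 1.23, and 1.43 and 1.53, so the groups did not overlap at any step in either line.

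TUBB3 made up 15.7% ± 2.33 of listed β-tubulin FPKM under DMSO in COLO858, 44.9% ± 4.15 at 24 h and 40.3% ± 3.82 at 48 h. In MMACSF, where its level fell, its share still went from 24.1% ± 2.97 to 40.1% ± 3.80 and 40.1% ± 0.228. TUBB4B, a broadly expressed isotype outside the 10, went from 72.0% ± 2.73 to 38.9% ± 4.08 and 44.8% ± 4.17 in COLO858 and from 48.8% ± 3.97 to 24.1% ± 0.783 and 24.5% ± 1.93 in MMACSF. TUBB2A went from 2.27% ± 0.0405 to 6.57% ± 0.250 in COLO858 and from 9.40% ± 0.973 to 14.8% ± 1.45 in MMACSF at 48 h. TUBB6 was 6.11% ± 0.126, 1.60% ± 0.0199 and 3.33% ± 0.159 in COLO858 and between 8.21% and 9.86% in MMACSF. In COLO858 the offset between replicates nearly cancelled in TUBB2A over TUBB6. That ratio was 0.371 and 0.373 under DMSO, 2.71 and 2.71 at 24 h and 1.96 and 1.98 at 48 h. The offset remained in part in TUBB3 over TUBB6, at 2.80 and 2.34, 30.2 and 26.0, and 12.5 and 11.7 there. It also remained in the TUBB3 share, at 17.4% and 14.1% under DMSO in COLO858.

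**Figure D3:**
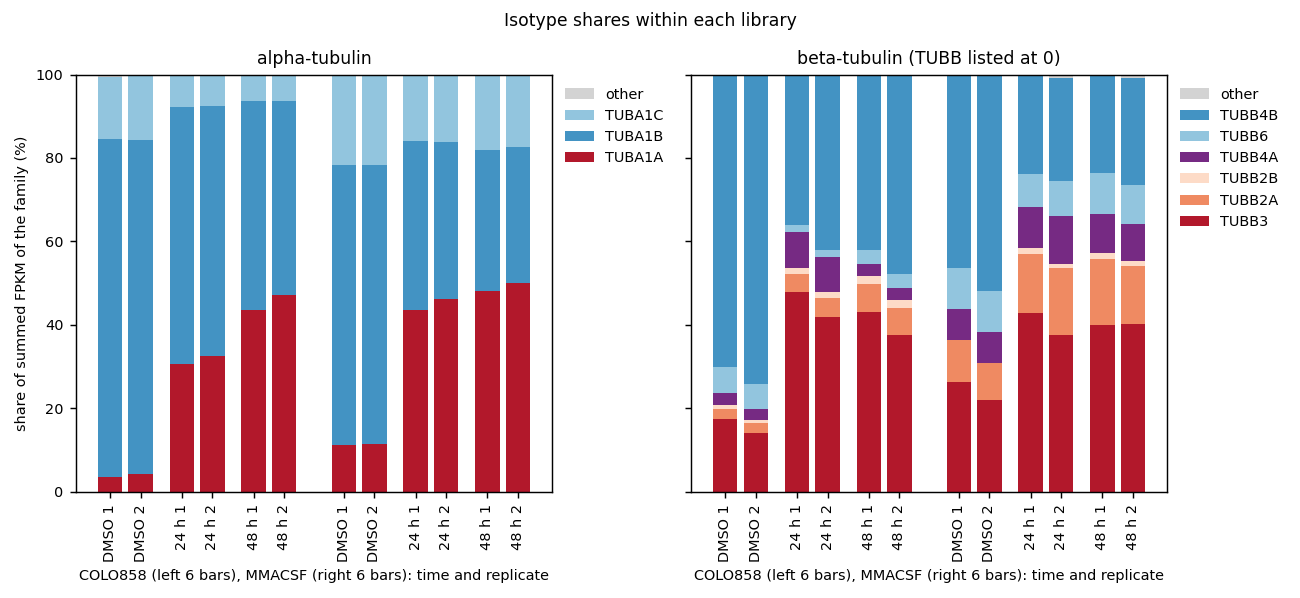
Stacked bars of the share of each isotype in the summed α-tubulin (left) and listed β-tubulin (right) FPKM of a library (y axis, percent), one bar per library, COLO858 in the left 6 bars and MMACSF in the right 6 of each panel. TUBB is listed at 0 and absent. The red blocks, TUBA1A and TUBB3, take 3.79% and 15.7% on average in COLO858 with DMSO, then 45.3% and 40.3% there at 48 h, beside 49.1% and 40.1% in MMACSF.

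The summed α-tubulin FPKM, averaged over 2 libraries, in COLO858 was 854 with DMSO, 664 at 24 h and 1045 at 48 h, against 598, 156 and 125 in MMACSF. The summed listed β-tubulin was 816, 813 and 1059 in COLO858, against 434, 177 and 145 in MMACSF. Both sums were highest at 48 h in COLO858 and lowest at 48 h in MMACSF.

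The order of the members within a group also changed. Under DMSO both lines had TUBA1B above TUBA1C above TUBA1A above TUBA4A, with no overlap between neighbours. At 48 h TUBA1B and TUBA1A overlapped at the top in COLO858, and TUBA1A was above TUBA1B in MMACSF at both times without overlap, though at 24 h by only 62.9 against 62.8 FPKM at the nearest values. TUBB3 was the highest of the 4 β members in all 6 groups. TUBB6 was above TUBB2A under DMSO in COLO858 and overlapped it in MMACSF, and TUBB2A was above TUBB6 in all 4 drug groups.

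The members were also compared over the 12 libraries, after subtracting the mean of the DMSO libraries of the same line from log2(FPKM + 1). These correlations share libraries and DMSO pairs, have large steps at the drug groups, and are given as descriptions. TUBA1B went with TUBA1C (Pearson r = 0.951) and TUBB2A with TUBB3 (0.967). TUBA1A went with MAP1B (0.932), TUBB2A (0.892), TUBB3 (0.881) and MAP2 (0.880), and against TUBA4A (−0.977), whereas TUBA1A and TUBA1B had an r of 0.342. MAP1B and TUBA4A were at most 0.195 and 0.180 FPKM in MMACSF, so their r rests mainly on the COLO858 libraries. TUBB2A and TUBB2B, the member pair with the largest shared part, had an r of 0.207. Among the 11699 genes searched, those most like TUBA1A were MID1 (0.998), S100B (0.996) and DOCK10 (0.991). MID1 in COLO858 read 5.08 and 6.23 FPKM under DMSO, then 21.9 and 27.2, then 39.97 and 45.6, and 10.7 to 13.8 in all MMACSF libraries. Those most like MAP2 were FAS (0.991), PARD3B (0.987) and LIMA1 (0.987), and those most like TUBB3 were SMG9 (0.978), ALDH4A1 (0.978) and NINJ1 (0.976). The genes most like TUBB6 were CCDC137 (0.992), PKMYT1 (0.990) and ACTN1 (0.984), most like TUBA1B MT2A (0.985), ZNF689 (0.983) and UROD (0.981), and most like TUBA1C CTPS (0.990), MAFF (0.983) and H2AFY (0.982).

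Genes of mitosis, for which the spindle uses tubulin, moved beside several members. A gene is called where the limma fit across all genes gave a Benjamini-Hochberg adjusted p under 0.01. All 10 mitotic marker genes were called lower at 24 h in COLO858 and at both times in MMACSF, with median log2 changes of −2.66, −2.37 and −3.50. At 48 h in COLO858 1 of 10 was still called lower, with a median of −0.61, and 4 of 10 were called higher at 48 h than at 24 h, with a median of 1.95. Their summed FPKM was 572 to 689 under DMSO, 79.4 to 92.3 at 24 h and 322 to 394 at 48 h in COLO858, and 362 to 427, 62.1 to 71.8 and 21.0 to 25.5 in MMACSF. TUBA1B, TUBA1C and TUBB6 had the same order of group means in COLO858, lowest at 24 h, and the other members did not. In MMACSF the mitotic sums went down at both steps, and so did the means of TUBA1B, TUBA1C, TUBB6, TUBB2A and TUBB3. Those of TUBA1A, TUBB2B and MAP2 did not, and TUBA4A and MAP1B were below the minimum there. The part of cell division in these values was not tested.

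Microtubule genes outside the 10, together with a list of neuronal intermediate filaments, were then tested, to see whether the rest of the system moved. Of 126 listed genes in 9 lists, 98 were tested in COLO858 and 93 in MMACSF. In COLO858 6 rose (6.12%) and 4 fell (4.08%) at 24 h, where 9.82% of all genes were called (4.11% higher and 5.71% lower). At 48 h 10 rose (10.2%) and 2 fell (2.04%), where 9.47% of all genes were called (4.74% higher and 4.73% lower). The share that rose was above that of all genes and the share that fell below it. The lists were chosen with earlier results of these data known, so nothing is concluded from these shares. In MMACSF 3 rose and 3 fell at 24 h (3.23% each), beside 5.83% of all genes (2.22% higher and 3.60% lower). At 48 h 3 rose (3.23%) and 5 fell (5.38%), beside 8.83% of all genes (3.42% higher and 5.41% lower). Between the drug times 1 rose and 1 fell in COLO858, beside 1.38% of all genes (1.17% higher and 0.213% lower). In MMACSF limma called 0 between the times, with 3 at an unadjusted p under 0.05, beside 0.222% of all genes (0.111% in each direction). The line difference was called higher for 3 and lower for 3 of 99 genes at 24 h, beside 3.71% of all genes (1.78% higher and 1.93% lower), and higher for 6 and lower for 3 at 48 h, beside 7.48% (4.19% higher and 3.30% lower). The median change was −0.04 at both times in COLO858 and 0.07 and 0.09 in MMACSF. The calls were few with 2 replicates and rested on all libraries: leaving out any 1 COLO858 library left 1 call at 24 h and 0 to 3 at 48 h, and leaving out any 1 MMACSF library left 0 at 24 h and 0 to 2 at 48 h. The rule of up to 2 rises and 2 falls in each list and contrast picked 48 calls, here termed the named calls. Most of them did not stay past the threshold in every fit that left out 1 library. The COLO858 calls of NAV3, of CLASP1 and of NAV2 at 48 h, also given below, were not among the 48.

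Of 11 other α- and β-tubulins, 3 were tested. TUBB4B fell in MMACSF from 228 and 193 FPKM under DMSO to 50.2 and 34.6 at 24 h and 38.3 and 32.1 at 48 h, log2 changes of −2.30 (SE 0.21, limma adjusted p = 0.00345) and −2.55 (SE 0.21, adjusted p = 0.00201). In COLO858 it read 642 and 528, then 355 and 268, then 514 and 426, changes of −0.91 (adjusted p = 0.0265) and −0.32 (adjusted p = 0.295) that did not pass, and the COLO858 minus MMACSF change at 48 h was 2.23 (adjusted p = 0.00221). TUBB4A, an isotype of neurons and oligodendrocytes, read 27.0 and 18.6, then 84.4 and 54.7, then 37.0 and 26.0 FPKM in COLO858, a 24 h change of 1.56 (adjusted p = 0.0215). TUBB1, an isotype of platelets, ranged from 0.499 to 1.64 FPKM. The other 8 were at most 0.617 FPKM in any library, TUBB listed at 0 among them.

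The γ-tubulin group, which starts new microtubules at the centrosome, had 13 genes tested. TUBGCP3, a subunit of the γ-tubulin ring complex, fell at 24 h in COLO858 (−1.204 on the log2 scale, adjusted p = 0.00749), and TUBG1, γ-tubulin itself, fell in MMACSF by 1.87 at 24 h (adjusted p = 0.00956) and 2.02 at 48 h (adjusted p = 0.00633). TUBG1 read 72.0 and 51.0, then 27.7 and 23.2, then 42.5 and 33.6 FPKM in COLO858, a 24 h change of −1.23 that did not pass (adjusted p = 0.0174). Of 9 genes of tubulin folding and autoregulation, limma called 0 in any contrast, while an unadjusted p under 0.05 was reached in COLO858 by 3 at 24 h and 1 at 48 h, and in MMACSF by 4 and 2.

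Among tubulin modifying enzymes, 15 were tested in each line. ATAT1, also on this list, is among the neighbours of TUBB listed at 0 in every library, which is no measurement of its level. The tubulin deacetylases HDAC6 and SIRT2 rose in COLO858. HDAC6 went from 11.04 and 10.2 FPKM to 19.8 and 19.8 at 24 h and 25.1 and 24.2 at 48 h, log2 changes of 0.84 (SE 0.13, adjusted p = 0.00979) and 1.14 (SE 0.13, adjusted p = 0.00450). SIRT2 rose by 1.46 at 48 h (SE 0.19, adjusted p = 0.00643), from 39.7 and 30.7 to 108 and 88.7 FPKM. SIRT2 was not called in MMACSF, and neither was its line difference. The list's median change at 24 h and 48 h was 0.05 and 0.002 in COLO858 and 0.25 and 0.27 in MMACSF. In MMACSF the HDAC6 change of 0.57 at 48 h did not pass (adjusted p = 0.0219), and neither did its difference between the lines (0.57, adjusted p = 0.0201). In MMACSF the deglutamylase AGBL2 rose by 1.25 at 24 h (adjusted p = 0.00941) and 1.39 at 48 h (adjusted p = 0.00572), and TTLL3, a tubulin glycylase, by 1.78 at 48 h (adjusted p = 0.00558).

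Of 21 other structural MAPs, 15 were tested in COLO858 and 13 in MMACSF. DCLK2, a doublecortin-like kinase, rose in COLO858 from 1.05 and 0.980 FPKM to 5.58 and 4.32 at 24 h and 4.90 and 4.99 at 48 h, changes of 1.55 (adjusted p = 0.00342) and 1.56 (adjusted p = 0.00365). MAP4, the main MAP of non-neuronal cells, rose in COLO858 at 48 h from 56.7 and 55.9 to 109 and 110 FPKM (0.94, adjusted p = 0.00562). MAP4 was not called in MMACSF, and neither was its line difference. DCLK1 rose at 24 h in MMACSF, from 3.05 and 3.58 to 9.83 and 12.8 FPKM (1.504, adjusted p = 0.00755), and changed by −0.86 in COLO858. MAPT, which encodes the axonal MAP tau, stayed between 0.129 and 0.934 FPKM in all 12 libraries and was not tested. Of stathmins and severing proteins, FIGNL1, a severing ATPase, fell at 24 h in COLO858 (−2.02, adjusted p = 0.00450). STMN1, the destabiliser stathmin, read 161 and 212 FPKM under DMSO and 153 and 207 after 48 h in COLO858, whereas MMACSF had 119 and 150 and then 51.8 and 66.6, a change of −1.17 that did not pass (adjusted p = 0.0142).

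Plus-end proteins, which ride or guide growing microtubule ends, had 17 genes tested in each line. They had the most calls in COLO858, 4 higher at 24 h and 5 at 48 h and none lower. Of all genes there, 4.11% and 4.74% were called higher and 5.71% and 4.73% lower. In MMACSF 0 were called higher and 1 and 2 lower, beside 2.22% and 3.42% higher and 3.60% and 5.41% lower of all genes. Changes were positive for 14 and 11 of the 17 in COLO858 and for 12 and 11 in MMACSF. Only NAV2 and SLAIN1 of this list were called for the line difference. In COLO858 NAV2, a neuron navigator protein, rose from 0.987 and 1.11 FPKM to 20.8 and 22.1 at 24 h. It fell back to 5.95 and 5.43 at 48 h, changes against DMSO of 3.45 (SE 0.14, limma adjusted p = 0.000549) and 1.71 (adjusted p = 0.00190). In MMACSF it fell from 31.2 and 28.9 to 10.1 and 13.7 and then 7.27 and 7.49, changes of −1.28 (adjusted p = 0.00864) and −1.89 (adjusted p = 0.00241). CLIP3, a linker of the Golgi and microtubules, rose in COLO858 by 1.69 (adjusted p = 0.00488) and 1.75 (adjusted p = 0.00479), and DST, dystonin, by 1.74 at 48 h (adjusted p = 0.00476). The remaining COLO858 calls, named here after their values were seen, were NAV3 (1.63 and 1.73) and CLASP1 (1.41 and 1.13), each called at both times. In MMACSF SLAIN1 fell at 48 h (−1.34, adjusted p = 0.00518). For COLO858 the list's median was 0.62 and 0.46, for MMACSF 0.49 and 0.39, beside all-gene medians of 0.06, −0.01, 0.07 and 0.06.

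Of neuronal kinesins and collapsin response mediator proteins, which carry and anchor cargo in axons, DPYSL5 fell at 24 h (−1.31, adjusted p = 0.00337) and the kinesin KIF3C at 48 h (−0.93, adjusted p = 0.00856) in COLO858. DPYSL2, also called CRMP2, a tubulin-binding axon growth protein, rose in MMACSF from 6.27 and 7.79 FPKM to 18.0 and 21.0 at 24 h and 19.2 and 22.5 at 48 h (1.35, adjusted p = 0.00730, and 1.45, adjusted p = 0.00497).

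The neuronal intermediate filaments NEFL and NES moved in opposite directions at 48 h in COLO858. NEFL, the light neurofilament, fell there from 108 and 128 FPKM to 52.2 and 52.0 at 24 h and 26.6 and 28.8 at 48 h (−1.16, adjusted p = 0.00520, and −2.05, adjusted p = 0.00126), and was at most 0.101 FPKM in MMACSF. NES, nestin, a filament of neural precursors, read 123 and 114, then 68.9 and 72.7, then 246 and 236 FPKM in COLO858, a rise of 1.02 at 48 h against DMSO (adjusted p = 0.00460) and of 1.75 against 24 h (adjusted p = 0.00413). In MMACSF NES fell from 34.8 and 29.7 to 13.3 and 13.1 at 48 h (−1.22, adjusted p = 0.00393).

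**Figure D4:**
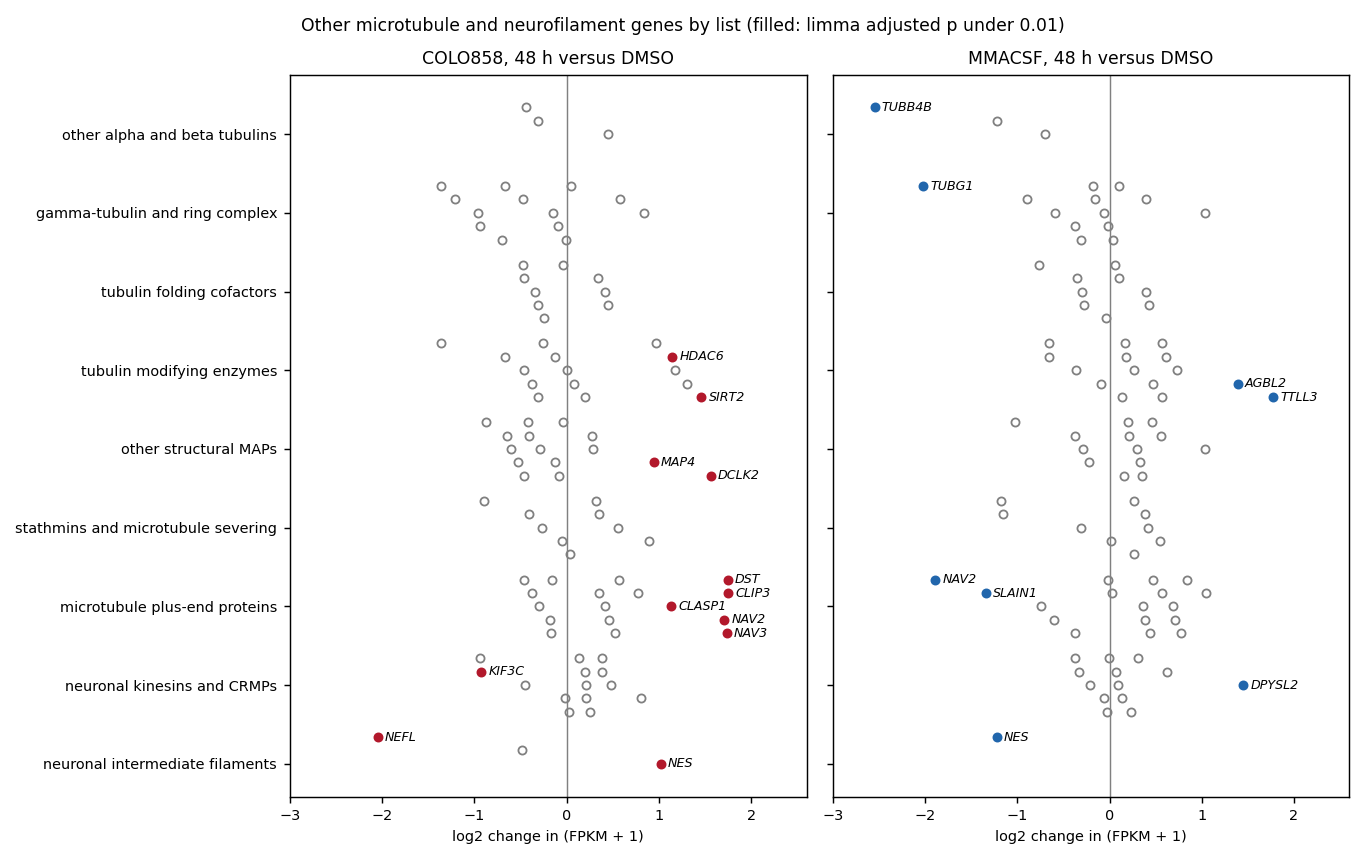
Change at 48 h against DMSO on the log2(FPKM + 1) scale (x axis) of the microtubule and filament genes outside the 10, each a circle placed in the row of its list, for COLO858 (left) and MMACSF (right). Filled circles carry a limma adjusted p under 0.01 and a name. The 12 named genes in COLO858 comprise 10 that rose, 5 of them plus-end proteins, and the 8 in MMACSF comprise 3 that rose and 5 that fell, with TUBB4B lowest at −2.55.

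The RefSeq promoters of the 10 genes (windows around each start site, GRCh38.p14) were searched on both strands for 4 motifs, with 17 promoter windows for the 10 genes and 35116 in the whole table. The AP-1 motif TGANTCA, the site of Fos and Jun dimers, was in 1 of 17 windows against 7.71% of all. The cyclic AMP response element TGACGTCA was in 1 of 17 against 1.85%, CCAAT in 8 of 17 against 34.6%, and TATAAA in 3 of 17 against 11.5%. Some windows of TUBA1C and of MAP2 overlap, so the 17 are not independent. The CCAAT at −104 and at −197 in the overlapping TUBA1C windows is the same site counted again. The windows that held the rarest motifs are shown, on the strand of the gene and with the motif in capitals. In TUBB3 the AP-1 match began at base −21 from the upstream start site (chr16:89921675-89921974), and in TUBB2A the cyclic AMP response element began at base −60 (chr6:3157495-3157794).
TUBB3: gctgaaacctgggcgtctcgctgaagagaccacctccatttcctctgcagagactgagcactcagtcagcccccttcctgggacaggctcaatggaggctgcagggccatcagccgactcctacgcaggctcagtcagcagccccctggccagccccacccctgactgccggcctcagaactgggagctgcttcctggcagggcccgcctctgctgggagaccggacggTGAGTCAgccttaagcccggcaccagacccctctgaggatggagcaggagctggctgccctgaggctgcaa
TUBB2A: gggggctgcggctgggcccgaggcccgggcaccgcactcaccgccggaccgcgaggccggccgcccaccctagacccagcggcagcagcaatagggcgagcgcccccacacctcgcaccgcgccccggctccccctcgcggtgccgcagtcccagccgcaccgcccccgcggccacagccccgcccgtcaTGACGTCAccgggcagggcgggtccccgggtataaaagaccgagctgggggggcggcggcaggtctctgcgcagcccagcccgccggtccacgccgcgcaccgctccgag
A match describes letters in a window and is not shown to be a bound site. TUBA1A, the member that rose most, had neither motif in its window (chr12:49189031-49189330) and held CCAAT at 2 places.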

How the data were processed

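Per the labels, the authors made strand-specific mRNA libraries, added ERCC controls, read 50 bases from one end and, per the labels and the paper's methods, aligned them to hg19 with TopHat and computed FPKM with Cuffdiff. The deposited FPKM, in 1 table per line, are the unit used here. The annotation, program versions, strand setting and scaling are not given in the sources used here. Read counts are not given, so depth and the precision it sets are unknown. Summed FPKM per library, which is no depth, was 670310 to 1013040 over 23273 genes, and 11679 to 11972 genes reached 1 FPKM. All 12 columns were used and 0 left out.

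The members and the gene lists were chosen with earlier results of these data known. Each line was fitted in limma 3.58.1 (R 4.3.3) on log2(FPKM + 1) with 3 groups, and the lines together with 6 groups for the difference, letting the prior variance follow the mean. A gene entered when the mean of any group reached 1 FPKM, and tests were two-sided with Benjamini-Hochberg adjustment over all of them and a threshold of 0.01. The fit and its error rates were tested on simulated data, but no outcome is given here, so no error rate can be read for these calls. Both drug times share the same DMSO libraries. Named outside genes were up to 2 with the largest rise and up to 2 with the largest fall past the threshold in each list and contrast. Added to these were every measured α- or β-tubulin by range, and the 3 genes most like TUBA1A, TUBA1B, TUBA1C, TUBB3, TUBB6 and MAP2. Other genes, among them NAV3, CLASP1, STMN1, MAPT and MC1R, were named outside this rule. Gene coordinates come from GENCODE lifted to GRCh37 and windows and identities from that genome and its transcripts (Biopython 1.88). Promoters come from RefSeq on GRCh38.p14, and all 10 members matched by symbol. Alternatives were an added constant of 0.1 FPKM, no minimum, a replicate block, median-ratio rescaling, leaving out each library, and shares over the members alone. Some sequences are not reported here.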

Additional observations from a re-analysis of the deposited data

Results flagged for a closer look

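Results in which the lines moved differently are listed here, with the COLO858 change minus the MMACSF change on the log2(FPKM + 1) scale and, for genes outside the 10, the limma adjusted p of that difference. At 24 h the difference was 4.73 for NAV2 (adjusted p = 1.70e-05), 3.45 in COLO858 and −1.28 in MMACSF. It was 2.43 for SLAIN1 (adjusted p = 0.00204), a plus-end protein at 1.44 and −0.99, and 1.18 for DCLK2 (adjusted p = 0.00537), at 1.55 and 0.37. It was −2.36 for DCLK1 (adjusted p = 0.00356), at −0.86 and 1.504, −1.19 for DPYSL5 (adjusted p = 0.00203), at −1.31 and −0.12, and −1.06 for NEFL (adjusted p = 0.00644), which was below the minimum in MMACSF.

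At 48 h the difference was 3.60 for NAV2 (adjusted p = 2.45e-05), at 1.71 and −1.89, and 2.24 for NES (adjusted p = 4.45e-05), at 1.02 and −1.22. It was 2.23 for TUBB4B (adjusted p = 0.00221), at −0.32 and −2.55, 2.11 for SLAIN1 (adjusted p = 0.00209), at 0.77 and −1.34, and 1.54 for TTLL7 (adjusted p = 0.00247), a polyglutamylase of neuronal β-tubulin, at 1.18 and −0.36. It was 1.00 for DCLK2 (adjusted p = 0.00675), at 1.56 and 0.56, and −1.998 for NEFL (adjusted p = 0.000177), at −2.05 in COLO858. AGBL2 differed by −1.03 (adjusted p = 0.00767), with 1.39 in MMACSF and no fit in COLO858 alone, and AGBL5, also a deglutamylase, by −0.80 (adjusted p = 0.00876), at −0.67 and 0.13.

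Members are listed where every COLO858 library lay on one side of DMSO and every MMACSF library on the other. The difference was 1.47 for TUBB2A at 24 h (0.87 and −0.60) and 2.75 at 48 h (1.84 and −0.90). At 48 h it was 3.97 for TUBA1A (3.83 and −0.14) and 2.56 for TUBB3 (1.72 and −0.84). The −0.14 of TUBA1A has an SE of 0.13, so its level stayed near DMSO in MMACSF. Of all genes tested, 34.1% and 29.9% lay wholly above DMSO in COLO858 at 24 h and 48 h. In MMACSF 25.8% and 28.8% lay wholly below. TUBA1B and TUBA1C, lower in both lines, differed by 2.80 and 1.55 at 48 h. No test is given for these, because the members were chosen with the values known. What sets the lines apart was not tested.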

How the results depend on the processing

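None of the 48 named calls of outside genes changed sign under the alternatives run. Of 860 alternative fits of the 74 member changes, 12 had the other sign, over 7 changes, each between −0.27 and 0.24 as reported. TUBA1A in MMACSF at 24 h (0.05) became −0.02 with rescaling and −0.10 without 24 h replicate 2. Between the drug times, TUBB3 in COLO858 (0.24) became −0.16 without 24 h replicate 2 and −0.09 without 48 h replicate 1, and MAP1B there (−0.10) became 0.08 without 24 h replicate 2. In MMACSF between the times, TUBB3 (−0.27), TUBB2B (−0.08) and TUBB6 (−0.05) became 0.12, 0.18 and 0.18 without 24 h replicate 1, and TUBB2B and TUBB6 became 0.06 and 0.19 without 48 h replicate 2. The line difference of TUBB2B at 48 h (0.21) became −0.67 with a constant of 0.1 and −0.06 without COLO858 DMSO replicate 2. Of the 74 member changes, 17 moved by more than the replicate SD with a constant of 0.1 and 3 with rescaling, and so did 38 of 564 fits without a library. Median-ratio rescaling moved no count of outside genes called by over 1.5 times. An added constant of 0.1 FPKM moved the members' median in COLO858 at 48 h from 1.06 to 1.21. With no minimum, 10 members were fitted in MMACSF and their 48 h median became −0.49, and the outside genes called became 1 for COLO858 48 h against 24 h and 1 for MMACSF at 24 h. Without single libraries, outside genes called ranged from 1 to 1 for COLO858 at 24 h, 0 to 3 at 48 h and 0 to 0 between the times, 0 to 0, 0 to 2 and 0 to 0 in MMACSF, and 2 to 5 and 3 to 7 for the differences at 24 h and 48 h. The members' medians ranged from 0.44 to 0.82 and 1.00 to 1.11 in COLO858 and from −0.90 to −0.27 and −1.18 to −0.56 in MMACSF. Of 378 such fits of the 48 named calls, 121 stayed past the threshold.

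Replicate numbers are shared across groups, but nothing says what they pair. Same-numbered deviations correlated at 0.196 to 0.211 in COLO858 and 0.0628 to 0.113 in MMACSF. With the replicate number as a block, outside genes called became 49 (27 higher), 52 (28) and 22 (13) in COLO858 at 24 h, 48 h and between them, 28 (13) and 32 (17) in MMACSF at 24 h and 48 h, and 25 (14) and 37 (22) for the differences, and those called without the block were among them. Calls over all genes became 5719, 5549, 2280, 3284 and 3790, from 1247, 1202, 175, 734 and 1113, and 2396 and 3434 for the differences, from 505 and 1017. Between the COLO858 times rescaling gave 281 and no minimum 86, and for the difference at 24 h a constant of 0.1 gave 336.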
